A study of Mus musculus with 12 samples.

Results

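A set of 10 long noncoding RNAs of the mouse cerebellum was followed across 12 RNA sequencing libraries: Malat1, Neat1, Meg3, Rian, Mirg, Miat, Snhg11, Snhg14, Kcnq1ot1 and Pantr1. They were chosen by name, as RNAs known to be nuclear or neuronal, and each name matched 1 of the 55401 gene identifiers in the count tables. The choice was made with earlier results of these data known. All 10 of 10 passed the filter on low counts that left 19378 genes for testing. The mice model spinocerebellar ataxia type 1, in which an expanded CAG tract in Atxn1 lengthens a run of glutamines in ataxin-1. Heterozygous knock-in mice (Het, Atxn1 154Q/2Q) received either the compound Hit 2, dissolved in dimethyl sulfoxide (DMSO), or only the DMSO. Wild-type (WT) mice received DMSO only, and each of the 3 groups had 4 mice and 4 libraries. Hit 2 was prepared at 25 mg/ml with DMSO below 4 ml/kg and injected into the peritoneum in 2 courses of 5 daily doses, between 18 and 20 weeks of age. The knock-in allele sits at the mouse's own Atxn1 gene, so every cell type of a Het mouse carries it, and both Het groups carry it. The samples hold no WT group given Hit 2, and every control received the DMSO vehicle.

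Long noncoding RNAs are transcripts that are spliced or processed like messenger RNAs but code for no known protein, and many stay in the nucleus. Malat1 gathers in nuclear speckles, the bodies that hold splicing factors, and Neat1 is the scaffold on which paraspeckles assemble. Meg3, Rian and Mirg come from the imprinted Dlk1-Dio3 locus, Snhg14 and Kcnq1ot1 from 2 other imprinted loci, while Miat, Snhg11 and Pantr1 are known mainly from neurons. Libraries depleted of ribosomal RNA, as these were, capture such RNAs whether or not they end in a poly(A) tail.

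The ends of Malat1 and Neat1 are printed because they are the known reason why these RNAs last without a tail. Malat1 and the long form of Neat1 are cut by RNase P and have no added poly(A) tail; a triple helix of an A-rich stretch and a pair of U-rich stretches protects the end instead. The windows below, read 5′ to 3′ on the minus strand of chromosome 19 (GENCODE M21, GRCm38, with U written as T), carry the 3 stretches in capitals. The Malat1 window is chr19:5795977-5796072 and the Neat1 window is chr19:5824708-5824802.
Malat1: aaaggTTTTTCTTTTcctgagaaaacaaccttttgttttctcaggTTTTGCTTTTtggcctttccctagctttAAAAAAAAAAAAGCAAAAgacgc
Neat1: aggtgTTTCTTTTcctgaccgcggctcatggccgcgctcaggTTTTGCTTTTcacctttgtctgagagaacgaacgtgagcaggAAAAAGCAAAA
The letters searched, on the transcript strand, were the 3 runs of capitals of the Neat1 window, with 10 to 40 bases between the U-rich runs and 10 to 60 bases before the A-rich run. Among the 55341 gene names with a transcript in that annotation, 2 held this order of letters, and they were Malat1 and Neat1. The spacing was written after these ends were read, so the count describes them and tests nothing. The annotated Neat1 ends with the last base shown, and the annotated Malat1 runs on for 292 bases, so its counts may also hold reads of the small RNA cut from its end.

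A second set of sequences bears on the compound, which the series presents as selective for CAG repeats, and on a repeat with more copies in Miat than in the other 9 members. Over all annotated transcripts of each member, the longest uninterrupted CAG run was the 4 units of Malat1 (capitals, chr19:5801244-5801295, minus strand), and the longest runs of the other members were 2 or 3 units. A run at least that long occurred in 952 genes, 1.72% of those with a transcript. Miat carries TACTAAC, the letters of the branch point that the splicing factor SF1 recognises, and the window with 3 close copies is shown (chr5:112216754-112216810, minus strand).
Malat1 CAG run: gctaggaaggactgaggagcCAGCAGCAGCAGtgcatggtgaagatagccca
Miat repeats: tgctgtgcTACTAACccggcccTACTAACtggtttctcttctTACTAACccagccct
The 9163 bases of the longest Miat transcript held 6 copies of TACTAAC on the transcript strand, while Kcnq1ot1 held 4 in 93092 bases, Neat1 held 1 in 20771 bases and the other 7 members held 0. Of the 975 transcripts at least as long, this Miat transcript included, 2 held at least as many copies as Miat, which is 0.205%. The Miat transcript is itself among those 2.

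Depth ranged from 15855751 to 45265719 reads assigned to genes per library, and levels are given as CPM, the counts of a gene scaled to a common library total, with library sizes adjusted by the TMM method. The labelled tissue was checked against markers. Summed over 5 granule cell markers (Gabra6, Neurod1, Cbln3, Fat2 and Zic1), 11 libraries held 2800 to 6160 CPM, and library 411 of the Het DMSO group held 28.7 CPM, with none of the 5 genes at 0 reads. Summed over 6 Purkinje cell markers, the same 11 libraries held 2788 to 6627 CPM and library 411 held 406 CPM. Library 411 goes against its label of cerebellum by these markers, and library 409 of the same group had 0.0795% mitochondrial reads against 1.85% to 2.81% in the other libraries. Uniquely mapped reads that met no annotated gene on the counted strand made up 45.4% of library 409 and 44.7% of library 411, against 51.0% to 54.6% of the other libraries. WT libraries 425 and 426 express Xist above 100 CPM and the other 10 do not. Purkinje cell markers also differed between genotypes, at 6382 to 6627 CPM in WT, 406 to 5725 CPM in Het DMSO and 2788 to 5563 CPM in Het Hit 2. So did 5 astroglia markers, at 1181 to 1284, 455 to 1066 and 758 to 1068 CPM; neither list overlapped between WT and Het libraries. Choroid plexus markers, 4 genes, summed to 16.2 to 1058 CPM in WT and 15.5 to 1876 CPM in Het DMSO. In Het Hit 2 they summed to 8.07 to 918 CPM. Summed over 4 hindbrain markers, WT library 425 held 7.28 CPM and every other library at most 0.29 CPM. In bulk tissue, fewer cells of a type and less RNA per cell cannot be told apart.

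The 10 RNAs differed widely in level. Per kilobase of annotated exon, Malat1 led in the WT libraries with 3018 ± 145 CPM per kb (SD, n = 4), and Meg3 followed with 172 ± 15.1 CPM per kb (SD, n = 4). Snhg11 (149 ± 20.4 CPM per kb, SD, n = 4) overlapped Meg3 in range, so the order of these neighbours is not beyond their spread. Next came Snhg14 with 33.3 ± 0.735 and Rian with 30.3 ± 2.74 CPM per kb (SD, n = 4), whose ranges also overlapped. Mirg (12.2 ± 1.11 CPM per kb) and Neat1 (9.53 ± 2.30 CPM per kb) overlapped each other, and Kcnq1ot1 stood at 6.02 ± 0.590 CPM per kb (SD, n = 4 for each). Miat, at 2.48 ± 2.44 CPM per kb (SD, n = 4), overlapped both Kcnq1ot1 and Pantr1, the lowest at 0.682 ± 0.0565 CPM per kb (SD, n = 4). Exon lengths come from GENCODE M21 and may differ from those of the annotation used for counting. Together the 10 genes took 1.25% to 2.92% of a library's gene reads, and without Malat1 the share was 0.589% to 1.24%.

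**Figure D1:**
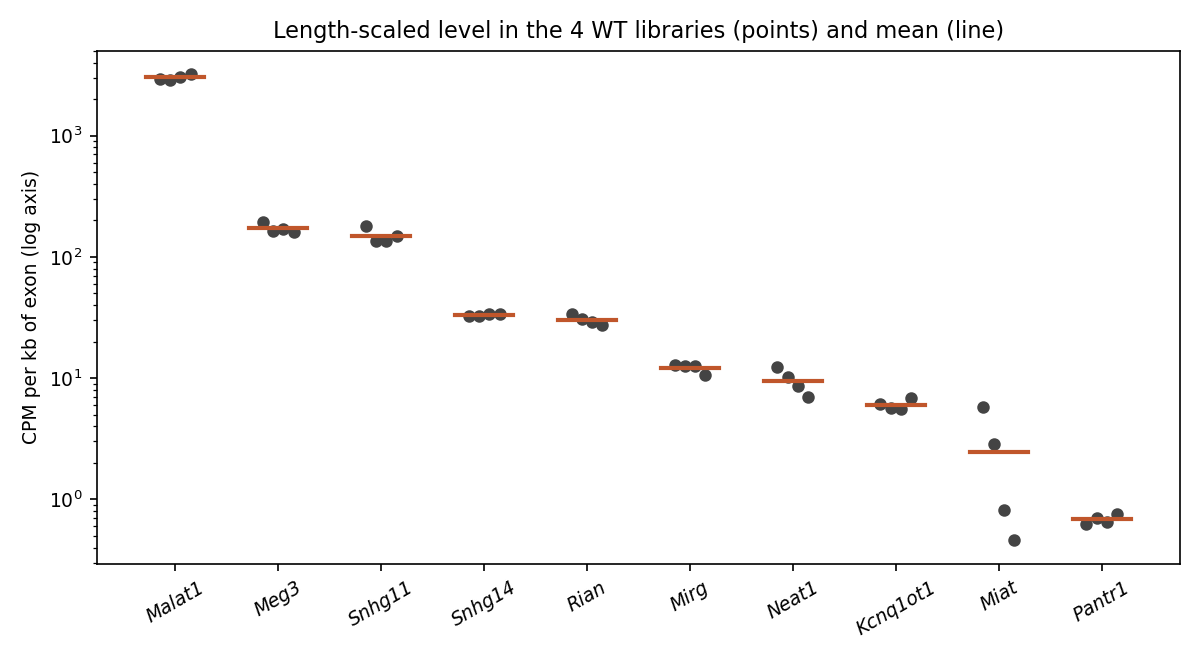
Level of the 10 RNAs in the 4 WT DMSO libraries in CPM per kilobase of annotated exon on a log axis, ordered by their mean (line; points are libraries). Malat1 lies at 2889 to 3220 CPM per kb, above every other member, and the points of Miat spread from 0.458 to 5.77 CPM per kb.

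The design asks what the knock-in allele does (Het DMSO against WT DMSO), what the compound does (Het Hit 2 against Het DMSO) and how far treated mice lie from WT (Het Hit 2 against WT DMSO). By edgeR's quasi-likelihood test, 0 of the 10 RNAs passed an adjusted p of 0.05 in any of these 3 comparisons. Of all genes tested, 0.00516%, 0% and 0.00516% passed, in the same order. At an unadjusted p under 0.05, Meg3 and Mirg were higher in the first comparison, beside 4.77% of all genes higher and 2.34% lower. In the second, 0 members met it, beside 0.753% higher and 0.8% lower, and in the third Meg3 alone was higher, beside 0.748% higher and 0.96% lower. Between the Het groups, 0 of 10 members were without overlap, beside 0.635% of genes wholly higher and 0.392% wholly lower. DESeq2 called 0 members in each comparison. The median log2 fold change of the 10 was 0.20 in the first comparison, 0.01 in the second and 0.16 in the third, beside 0.05, -0.04 and 0.02 over all genes tested.

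**Figure D2:**
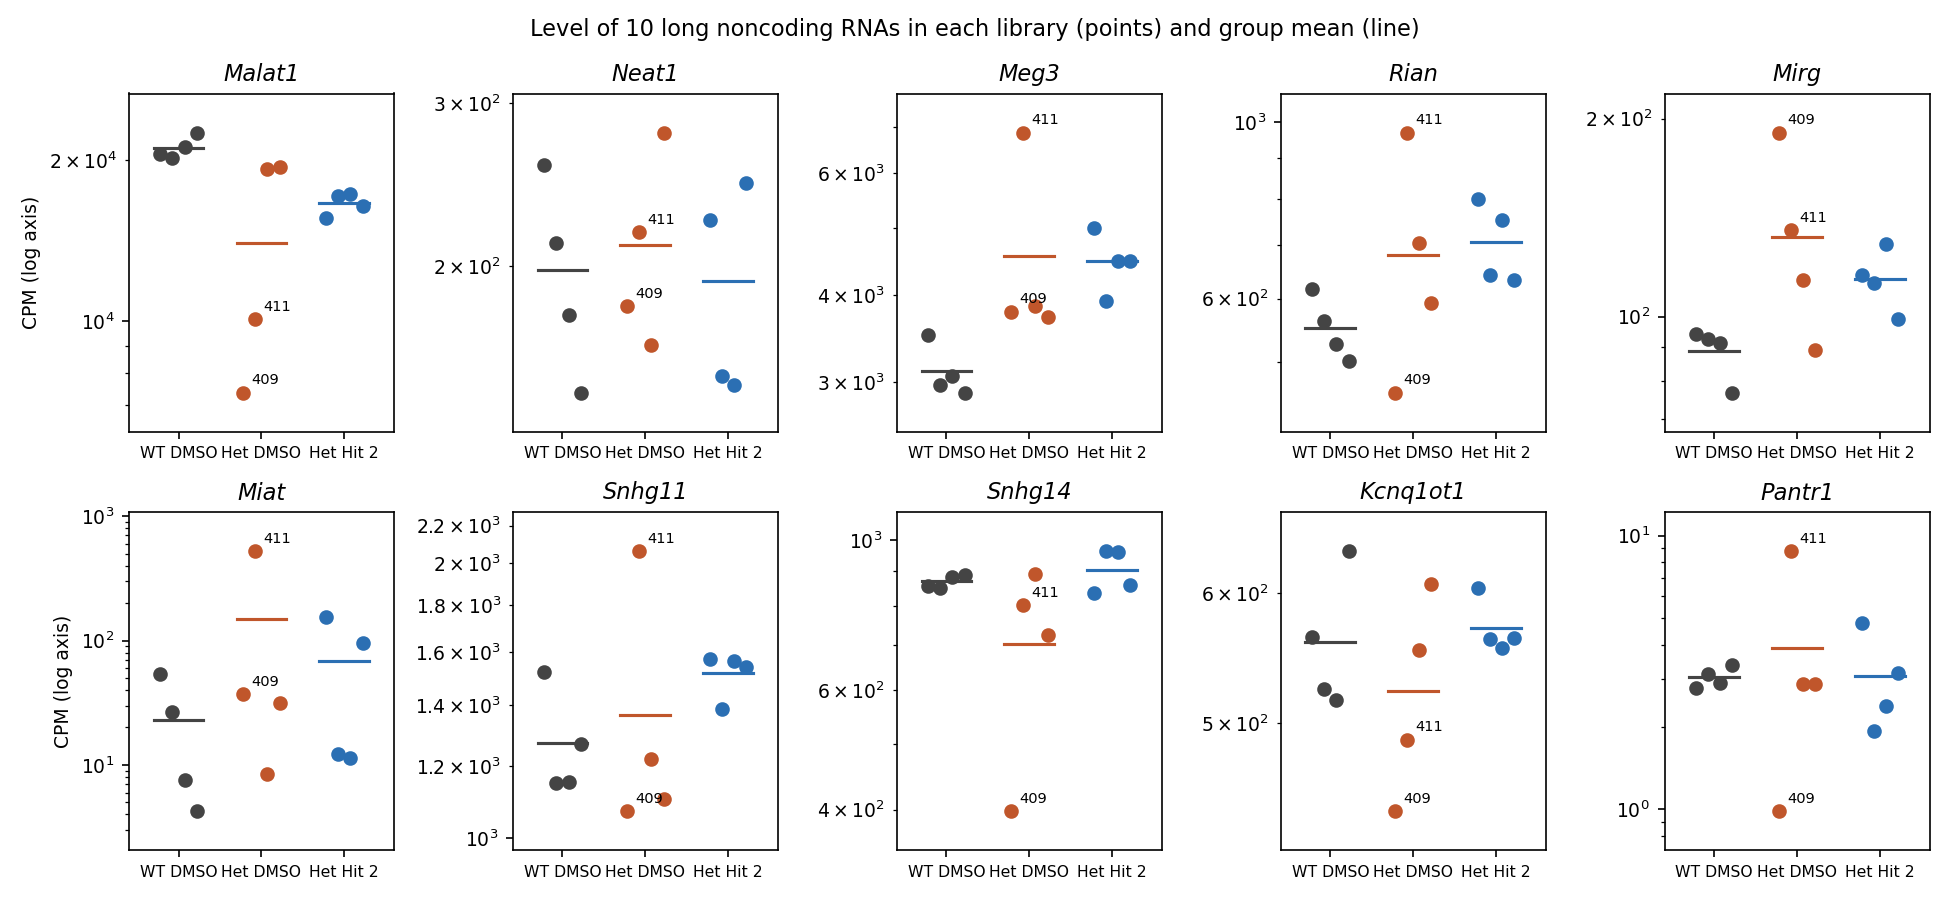
Level of each RNA in CPM on a log axis, 1 point per library and a line at the group mean, with libraries 409 and 411 marked. The Malat1 points of both Het groups lie below the lowest WT point at 20171 CPM, and the Meg3 points of both Het groups lie above the highest WT point at 3501 CPM.

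Malat1 (ENSMUSG00000092341, lincRNA, 1 exon, chromosome 19, 5795690 to 5802672 on the minus strand of GRCm38) was lower in every Het library than in every WT library. The WT libraries 413, 425, 426 and 431 held 20543, 20171, 21097 and 22483 CPM. The Het DMSO libraries 409, 411, 420 and 429 held 7369, 10103, 19245 and 19387 CPM, and the Het Hit 2 libraries 410, 421, 422 and 430 held 15567, 17159, 17270 and 16383 CPM. The 2 lowest values belong to libraries 409 and 411, and the other Het DMSO libraries lie just under the WT range while all 4 Hit 2 libraries lie well under it.

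Between Het DMSO and WT DMSO the Malat1 difference was -0.59 on the log2 scale (SE 0.28, 95% interval -1.20 to 0.03, adjusted p 0.616 by edgeR, permutation p 0.0286, exact and two-sided). It was -0.38 without library 409 and -0.14 without both 409 and 411, and it stayed below 0 in all 22 alternatives. Between Het Hit 2 and WT DMSO it was -0.34 (SE 0.28, 95% interval -0.96 to 0.27, adjusted p 1.000 by edgeR, permutation p 0.0286, exact and two-sided). This value ranged from -0.38 to -0.31 over the 22 alternatives, with adjusted p from 0.0843 (edgeR without libraries 409 and 411) to 1.000. A permutation p of 0.0286 is the smallest that the 70 assignments of 4 against 4 libraries allow. Het DMSO and Het Hit 2 overlapped, and their difference of 0.24 (SE 0.28, adjusted p 0.898 by edgeR) turned to -0.22 without libraries 409 and 411.

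Malat1 was 1 of 10 members whose Het DMSO libraries all lay below the WT libraries, beside 2.45% of all genes tested, and still so without libraries 409 and 411, beside 9.12%. It was also 1 of 10 in Het Hit 2 against WT DMSO, beside 3.42%. Both comparisons use the same 4 WT libraries and so are not independent. Counting error was small beside this spread: the share of gene reads was 0.661% in library 409 (95% Wilson interval 0.658% to 0.663%) and 2.27% in WT library 431 (2.26% to 2.28%). Intervals cover counting error only. The Purkinje cell and astroglia markers were likewise lower in all 8 Het libraries, and their part in the Malat1 values was not tested.

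Neat1 (ENSMUSG00000092274, lincRNA, chromosome 19, 5824708 to 5845478 on the minus strand), the paraspeckle scaffold and neighbour of Malat1, showed no such separation. It stood at 257, 212, 177 and 146 CPM in WT, at 181, 218, 164 and 279 CPM in Het DMSO and at 224, 152, 148 and 246 CPM in Het Hit 2, in the library order used for Malat1. The groups overlapped in all 3 comparisons, and the log2 fold changes were 0.09 (95% interval -0.42 to 0.60), -0.13 (-0.64 to 0.38) and -0.04 (-0.55 to 0.47). Without libraries 409 and 411 they were 0.1547, -0.2079 and -0.0532, and each changed sign when some single libraries were left out. Gene counts pool the short and the long Neat1 forms. Over the 12 libraries Malat1 and Neat1 had a Pearson r of -0.0378 (permutation p 0.909, adjusted over 7 pairs 0.984) and a Spearman rho of -0.189 (permutation p 0.559, adjusted 0.782), and r was -0.143 without libraries 409 and 411, the pair farthest from the Malat1 median.

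The proteins of the bodies these RNAs occupy were read from 2 lists. Of 12 nuclear speckle proteins, 12 were tested and 0 passed the threshold in any comparison, with median log2 fold changes of -0.11, 0.12 and 0.03 in the order of comparisons above. Of 11 paraspeckle proteins, 11 were tested and 0 passed, with medians of -0.07, 0.05 and -0.02. Srsf2, a splicing factor of speckles, held 123 ± 2.04 CPM in WT and 142 ± 28.2 CPM in Het DMSO (SD, n = 4 each), a log2 difference of 0.21 (SE 0.13, adjusted p 0.621 by edgeR). The difference was 0.0836 without library 409, 0.335 without library 411 and 0.1979 without both. In Het Hit 2 Srsf2 held 138 ± 7.80 CPM (SD, n = 4) and did not overlap WT (adjusted p 1.000 by edgeR), as 1 of 12 speckle genes, beside 2.9% of all genes wholly higher. Srrm2, a core speckle protein, differed by 0.22 (log2, SE 0.14, adjusted p 0.898 by edgeR) between Het Hit 2 and Het DMSO, by 0.1154 without library 411 and by 0.0286 without 409 and 411. Tardbp, which encodes TDP-43, had -0.25 (SE 0.20, adjusted p 0.647) between Het DMSO and WT DMSO and 0.0813 without libraries 409 and 411, and Rbm14, a paraspeckle protein, had -0.30 (SE 0.26, adjusted p 0.898 by edgeR) between the Het groups, and 0.0944 without library 409. Of the 6 neighbours of Malat1 and Neat1, 6 were tested and 0 passed; Frmd8 had 0.34 (SE 0.24) between Het DMSO and WT DMSO, and -0.0322 without libraries 409 and 411, and Slc25a45 had -0.48 (SE 0.25) between the Het groups and -0.3045 without those libraries.

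Meg3 (ENSMUSG00000021268, lincRNA, chromosome 12, 109541001 to 109571726 on the plus strand) is the maternally expressed RNA at the head of the Dlk1-Dio3 transcripts, and it was higher in every Het library than in every WT library. RefSeq (GRCm38.p6) gives 2 promoter windows for it, and the upstream one (chr12:109540746-109541045, plus strand) is printed because it holds, in capitals, a CCAAT box, a cAMP response element (TGACGTCA) and a TATA box (TATAAA).
Meg3 promoter: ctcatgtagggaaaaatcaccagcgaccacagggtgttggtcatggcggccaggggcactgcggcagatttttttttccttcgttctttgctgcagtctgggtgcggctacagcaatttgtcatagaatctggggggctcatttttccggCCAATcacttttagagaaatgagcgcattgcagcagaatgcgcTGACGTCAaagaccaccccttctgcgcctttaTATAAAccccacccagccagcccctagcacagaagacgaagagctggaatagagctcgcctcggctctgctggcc
RefSeq gave a promoter window for 8 of the 10 members. Searched on both strands, TGACGTCA was in 1.79% of 32851 promoter windows, CCAAT in 37.4% and TATAAA in 13.6%, and 0.0639% held all of them. Among the members with a window, TGACGTCA was found in this Meg3 window alone; the second Meg3 window held 0 copies of each of the 3 motifs. A match describes these letters and no binding.

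Meg3 stood at 3501, 2966, 3059 and 2894 CPM in the 4 WT libraries. It stood at 3789, 6871, 3857 and 3725 CPM in Het DMSO and at 5010, 3931, 4476 and 4486 CPM in Het Hit 2. Library 411 was highest, and all 8 Het libraries lay above the WT maximum of 3501 CPM. The log2 fold change from WT DMSO to Het DMSO was 0.55 (SE 0.21, 95% interval 0.09 to 1.02, edgeR p 0.0223 and adjusted p 0.616, permutation p 0.0286, exact and two-sided). It was 0.31 without library 411 and 0.2786 without 409 and 411. From WT DMSO to Het Hit 2 it was 0.53 (SE 0.21, 95% interval 0.07 to 0.99, edgeR p 0.0281 and adjusted p 1.000, permutation p 0.0286, exact and two-sided).

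Meg3 was 1 of 10 members wholly above WT in Het DMSO, beside 1.94% of all genes (without libraries 409 and 411 still so, beside 8.31%), and with Rian and Mirg it made 3 of 10 wholly above WT in Het Hit 2, beside 2.9%. Libraries 409 and 411 belong to neither group of Het Hit 2 against WT DMSO but enter the shared estimate of the spread. Without them edgeR gave a log2 fold change of 0.51 there with an adjusted p of 0.0429, and with only the 8 libraries compared it gave 0.53 with an adjusted p of 0.0909. With limma's quality weights, which reweight all 12 libraries, it was 0.46 with an adjusted p of 0.0239. The treated and untreated Het groups overlapped, with a log2 fold change of -0.03 (95% interval -0.49 to 0.43), which was 0.21 without library 411. The Purkinje cell and astroglia markers named above were lower in all 8 Het libraries. Libraries 411, 410 and 430, the 3 highest in Meg3, were also the 3 lowest in summed granule cell markers (28.7, 2800 and 3044 CPM, against 4065 to 6160 CPM in the other 9), and 410 and 430 are Het Hit 2 libraries. Library 422, also Het Hit 2, held 4730 CPM of granule cell markers and nearly as much Meg3 as library 430 (4476 against 4486 CPM). The 5 oligodendrocyte markers summed to 5406 CPM in library 411 and 4503 CPM in 410, against 1089 to 2849 CPM in the other 10, and the 5 microglia markers to 118 and 88.9 CPM, against 39.7 to 68.1 CPM. The part of these markers in the Meg3 values was not tested.

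Rian and Mirg lie downstream of Meg3 on the same strand and host small RNAs: Rian (ENSMUSG00000097451, chromosome 12, 109603940 to 109661716) box C/D snoRNAs and Mirg (ENSMUSG00000097391, lincRNA, chromosome 12, 109729764 to 109749460) microRNAs. Rian held 616, 563, 527 and 501 CPM in WT, 457, 969, 704 and 593 CPM in Het DMSO and 801, 642, 753 and 633 CPM in Het Hit 2. Mirg held 94.2, 92.4, 91.3 and 76.7 CPM in WT, 190, 135, 114 and 89.1 CPM in Het DMSO and 116, 112, 129 and 99.2 CPM in Het Hit 2. Both lay wholly above WT in Het Hit 2 and overlapped WT in Het DMSO, where library 409 was the lowest of all 12 for Rian and the highest of all 12 for Mirg.

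From WT DMSO to Het Hit 2 the log2 fold change was 0.36 for Rian (SE 0.20) and 0.36 for Mirg (SE 0.20), each with an adjusted p of 1.000 by edgeR and a permutation p of 0.0286, exact and two-sided. From WT DMSO to Het DMSO it was 0.30 for Rian (SE 0.20, edgeR adjusted p 0.625) and 0.58 for Mirg (SE 0.20, edgeR p 0.0127, adjusted p 0.616, exact permutation p 0.114). The Rian value was 0.10 without library 411, and the Mirg value was 0.34 without library 409 and 0.1831 without 409 and 411. Between the Het groups the values, Hit 2 minus DMSO, were 0.05 for Rian (95% interval -0.39 to 0.50) and -0.21 for Mirg (-0.64 to 0.21), and without 409 and 411 they were 0.1215 and 0.1669. Reads that also overlap the annotated small RNAs on the same strand are counted for neither gene, which touches 3.42% of Rian exon bases and 5.03% of Mirg exon bases.

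**Figure D3:**
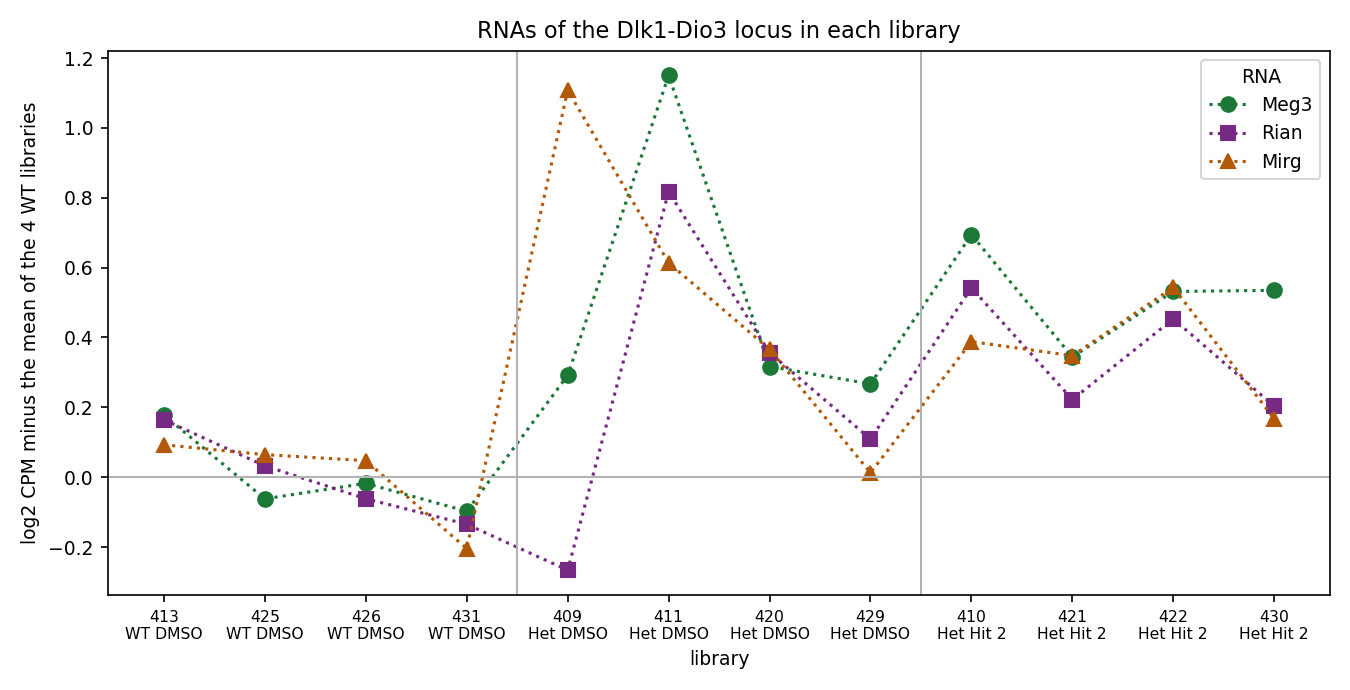
log2 CPM of Meg3, Rian and Mirg in each library, as the difference from the mean of the 4 WT libraries (dotted lines only join points of 1 RNA). The points of all 3 RNAs lie above 0 in the 4 Het Hit 2 libraries, and in library 409 Mirg is high while Rian is low.

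The 3 RNAs varied together to differing degrees over the 12 libraries, in 7 pairs examined. Meg3 and Rian had a Pearson r of 0.852 (permutation p 0.00049, adjusted 0.00171) and a Spearman rho of 0.832 (permutation p 0.00139, adjusted 0.00973). Their r was 0.684 without libraries 411 and 431, the farthest from the Meg3 median, 0.904 without 409 and 411, and 0.83 after group means were removed. Meg3 and Mirg had an r of 0.535 (permutation p 0.0764, adjusted 0.142) and a rho of 0.741 (permutation p 0.00804, adjusted 0.0281), and r was 0.359 without libraries 411 and 431, 0.781 without 409 and 411 and 0.172 after group means were removed. Rian and Mirg had an r of 0.194 (permutation p 0.544, adjusted 0.761) and a rho of 0.51 (permutation p 0.0952, adjusted 0.167), and r was 0.908 without libraries 409 and 411 and -0.131 after group means were removed over all 12. The values for both pairs with Mirg depended on the libraries kept.

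The protein-coding genes of the locus and its flanks gave 5 tested of 7 listed, with 0 past the threshold and medians of 0.58, -0.43 and 0.15. Wdr25 stood 0.58 higher on the log2 scale (SE 0.28, adjusted p 0.616 by edgeR) in Het DMSO than in WT DMSO, and was at -0.0609 without libraries 409 and 411. Begain had 1.23 (SE 0.68, adjusted p 0.616 by edgeR) in that comparison and -0.2158 without those libraries. Begain reached 128 CPM in library 411, against 14.6 to 52.9 CPM in the other 11.

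Miat (ENSMUSG00000097767, lincRNA, chromosome 5, 112213228 to 112229395 on the minus strand), a neuronal RNA also called Gomafu, was the member that varied most between libraries. It held 53.7, 26.6, 7.56 and 4.25 CPM in WT, 37.0, 524, 8.40 and 31.4 CPM in Het DMSO and 154, 12.2, 11.4 and 94.96 CPM in Het Hit 2. The highest value was 123 times the lowest over 12 libraries and 36.3 times over the 10 without 409 and 411. High and low libraries occurred in every group, and the groups overlapped in all comparisons.

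The Miat differences were 2.71 on the log2 scale (SE 1.31, adjusted p 0.616 by edgeR), -1.14 (SE 1.25, adjusted p 0.898) and 1.56 (SE 1.26, adjusted p 1.000). Without library 411 they were 0.19, 1.36 and 1.55, so that library decides the size of the first and the sign of the second. The third was 0.7687 without library 410 and 2.4003 without library 413. By the highest Pearson r among 16555 genes over 12 libraries, the genes most like Miat were Vstm2b (0.987), Gfra1 (0.983) and Chrna4 (0.983), and over the 10 libraries without 409 and 411 the values were 0.983, 0.971 and 0.976. All 3 were highest in library 411. Summed granule cell markers were lowest in libraries 411, 410 and 430 (28.7, 2800 and 3044 CPM), the 3 libraries highest in Miat and, as given above, in Meg3. Libraries 411 and 410 were also the highest in oligodendrocyte and microglia markers. The part of these markers in the Miat values was not tested.

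**Figure D4:**
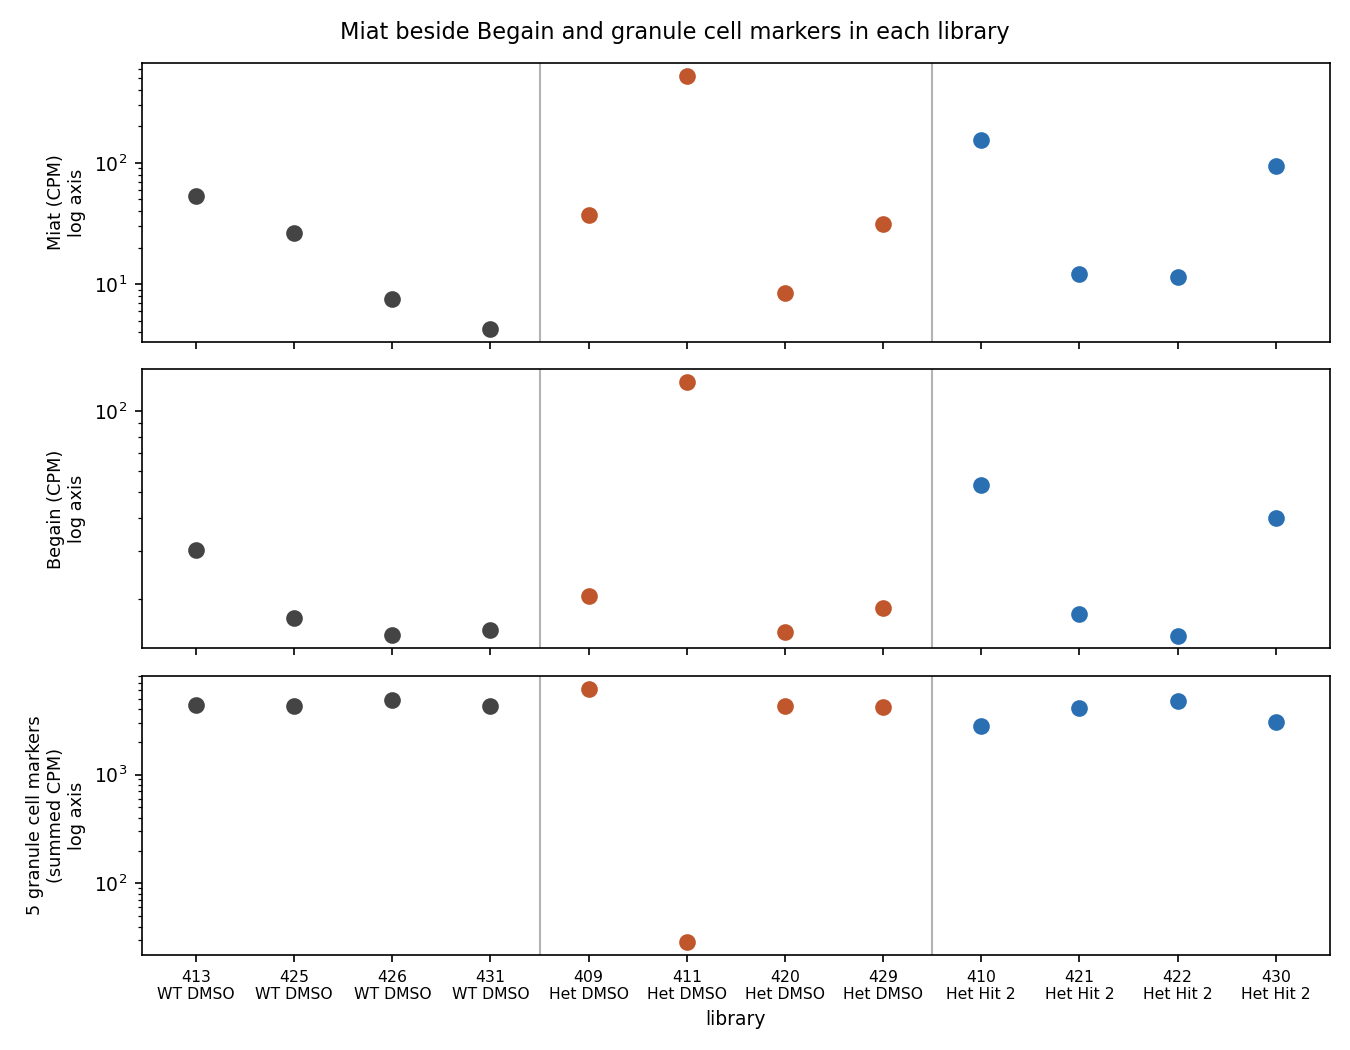
Miat, Begain and the summed level of 5 granule cell markers in each library, in CPM on log axes. Libraries 411, 410 and 430 are the 3 highest in Miat and the 3 lowest in granule cell markers.

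By the same measure the genes most like Malat1 were Rgs7bp (r 0.992), Cpeb4 (0.986) and Mef2a (0.986), with 0.926, 0.899 and 0.879 over the 10 libraries. Those most like Meg3 were Gm19410 (0.958), Tro (0.956) and Pnma3 (0.954), with 0.912, 0.917 and 0.944 over the 10 libraries. Those most like Neat1 were Crb2 (0.878), Adamts9 (0.871) and Dnah10 (0.866), with 0.906, 0.877 and 0.862. These values describe shared variation between libraries, to which depth and tissue content are common.

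Snhg14 (ENSMUSG00000100826, chromosome 7, 59307924 to 59975759 on the minus strand) is the paternally expressed host of snoRNA clusters whose far end runs antisense to Ube3a, the gene lost in Angelman syndrome. It held 855, 850, 882 and 888 CPM in WT, 398, 801, 890 and 723 CPM in Het DMSO and 836, 964, 960 and 860 CPM in Het Hit 2. Library 409 was lowest, and the groups overlapped. The log2 fold changes were -0.31 (SE 0.21), 0.36 (SE 0.21, 95% interval -0.08 to 0.81) and 0.06 (SE 0.20), with edgeR adjusted p of 0.625, 0.898 and 1.000, and without library 409 the first was -0.12 and the second 0.1691.

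Ube3a held 51.1 CPM in library 409 and 140 to 177 CPM in the other 11. Snhg14 and Ube3a had a Pearson r of 0.881 (permutation p 0.0814, adjusted 0.142) and a Spearman rho of -0.0839 (permutation p 0.801, adjusted 0.85), and r was -0.351 without libraries 409 and 429. The positive r rests on library 409. Of Snhg14 exon bases, 6.91% overlap Ube3a on the opposite strand, which the strand-specific counts keep apart. Of 10 other genes listed for this locus, 8 were tested and 0 passed, with medians of 0.36, -0.20 and 0.07. Herc2 stood 0.40 (SE 0.18) and Snrpn 0.32 (SE 0.17) higher on the log2 scale in Het DMSO than in WT DMSO, each with an adjusted p of 0.616 by edgeR. Without libraries 409 and 411 Herc2 was at 0.0805 and Snrpn at -0.0076, and without library 409 alone, which held 1120 CPM of Herc2, Herc2 was at 0.148.

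Kcnq1ot1 (ENSMUSG00000101609, antisense, chromosome 7, 143203458 to 143296549 on the minus strand) is a long unspliced RNA from the paternal chromosome that silences neighbouring genes in cis. It held 564, 524, 516 and 636 CPM in WT, 442, 488, 554 and 608 CPM in Het DMSO and 604, 563, 556 and 564 CPM in Het Hit 2. It was the steadiest member, with a highest value 1.44 times the lowest, and the groups overlapped. The log2 fold changes were -0.10 (95% interval -0.38 to 0.19), 0.13 (-0.16 to 0.41) and 0.03 (-0.26 to 0.31), and the first and second were 0.0436 and -0.0272 without libraries 409 and 411. Kcnq1ot1 and Kcnq1, the gene it is antisense to, had a Pearson r of -0.00661 (permutation p 0.984, adjusted 0.984) and a rho of 0.0629 (permutation p 0.85, adjusted 0.85), with r of 0.102 without libraries 409 and 411. Kcnq1 had 8 to 28 reads per library (0.404 to 0.871 CPM), too few for these values to show whether the 2 genes vary together. Of 10 genes of this imprinted domain, 7 were tested and 0 passed, with medians of 0.22, -0.21 and 0.09. Nap1l4 stood 0.22 higher on the log2 scale (SE 0.11, adjusted p 0.616 by edgeR) in Het DMSO than in WT DMSO, and 0.0538 without libraries 409 and 411. Th, which encodes tyrosine hydroxylase, had -1.58 (SE 0.82, adjusted p 1.000 by edgeR) between Het Hit 2 and WT DMSO, and -2.1375 (adjusted p 0.0462) with limma's library quality weights.

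Snhg11 (ENSMUSG00000044349, annotated as protein coding in GENCODE M21, chromosome 2, 158375638 to 158386145 on the plus strand) is a neuronal snoRNA host gene. It held 1520, 1150, 1153 and 1267 CPM in WT, 1071, 2064, 1220 and 1104 CPM in Het DMSO and 1571, 1386, 1566 and 1542 CPM in Het Hit 2. Of the Het Hit 2 libraries 3 lay above all WT libraries, and the groups still overlapped through WT library 413. The log2 fold changes were 0.10 (95% interval -0.35 to 0.56), 0.15 (-0.30 to 0.61) and 0.25 (-0.20 to 0.71). Without library 411 the first was -0.153 and the second 0.393, and without library 409 they were 0.1931 and 0.0545.

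Pantr1 (ENSMUSG00000060424, lincRNA, chromosome 1, 42590782 to 42694842 on the minus strand) neighbours Pou3f3, which encodes a neural transcription factor. It held 2.78, 3.11, 2.90 and 3.36 CPM in WT, 0.985, 8.78, 2.86 and 2.88 CPM in Het DMSO and 4.81, 1.93, 2.39 and 3.14 CPM in Het Hit 2. The lowest and the highest of the 12 values were libraries 409 and 411. The log2 fold changes were 0.34 (95% interval -0.78 to 1.47), -0.34 (-1.47 to 0.80) and 0.01 (-1.12 to 1.14), and without libraries 409 and 411 they were -0.0902, 0.0803 and -0.01. Pantr1 and Pou3f3 had a Pearson r of 0.857 (permutation p 0.00035, adjusted 0.00171) and a Spearman rho of 0.664 (permutation p 0.0218, adjusted 0.0509), and r was 0.667 without libraries 409 and 411.

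**Figure D5:**
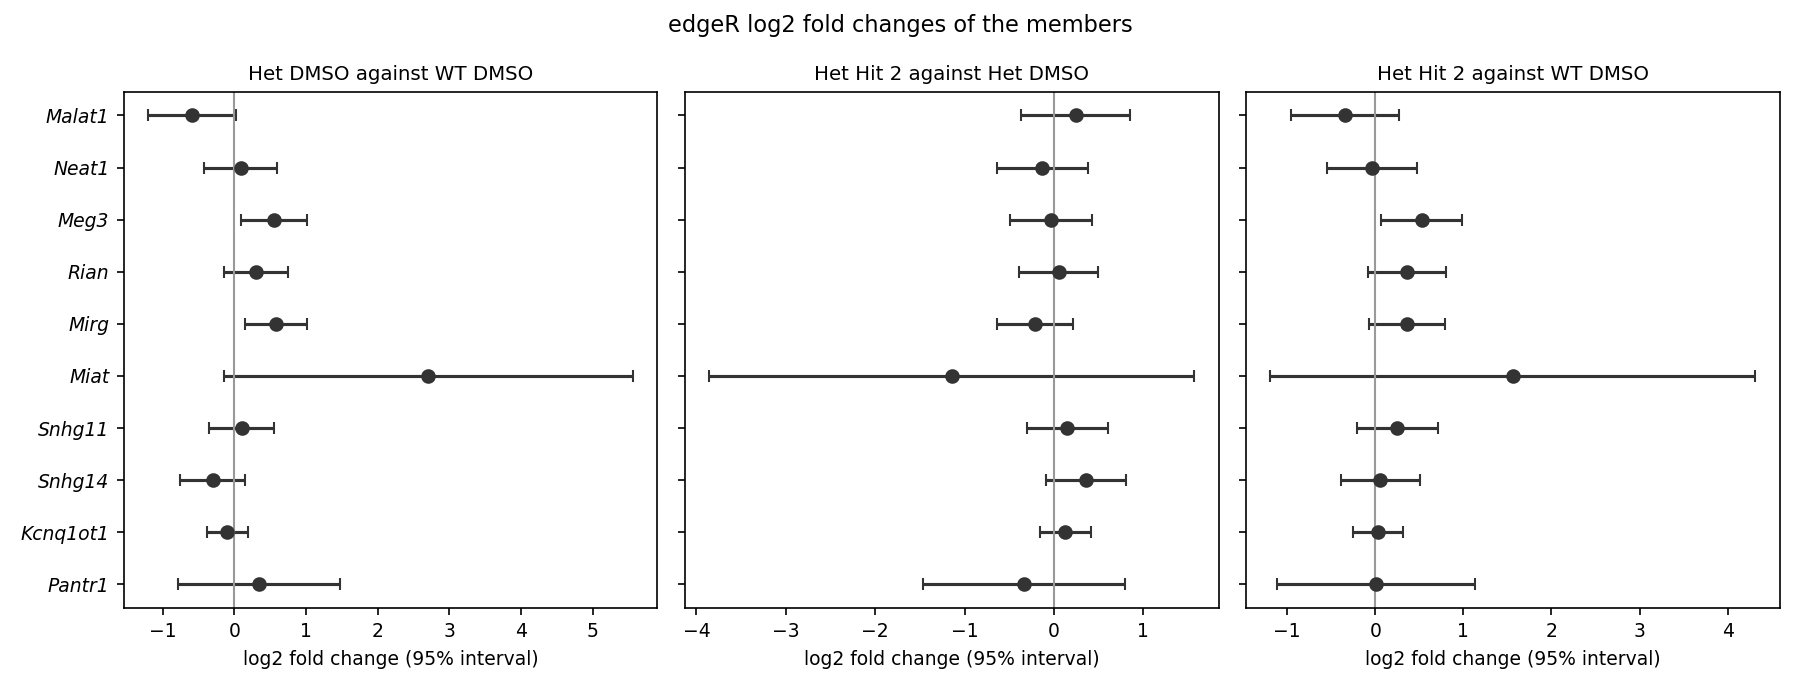
edgeR log2 fold changes of the 10 RNAs with 95% intervals in the 3 comparisons (points are estimates, and the x axes differ between panels). The interval of Meg3 lies above 0 in both comparisons with WT and spans 0 for Het Hit 2 against Het DMSO, and that of Miat is the widest in each panel.

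Among 29 tested of 32 other long noncoding RNAs, 0 passed the threshold in any comparison, with median log2 fold changes of 0.19, -0.03 and 0.09. Peg13, an imprinted RNA, held 363 CPM in WT on average and 497 CPM in Het DMSO (SD 155, n = 4), with no overlap and a difference of 0.45 on the log2 scale (SE 0.18, adjusted p 0.616 by edgeR). It was 1 of 29 RNAs of the list without overlap there, beside 1.94% of all genes wholly higher. Library 409 held 714 CPM of it, and the difference was 0.2171 without that library and 0.0753 without 409 and 411. Peg13 in Het Hit 2, at 380.2 to 400.3 CPM, also lay wholly above the WT maximum of 371 CPM, with a difference of 0.10 (SE 0.18, adjusted p 1.000 by edgeR). It was 1 of 2 RNAs among the 29 without overlap there, beside 2.9% of all genes wholly higher. Ftx, from the X inactivation centre, had -0.41 (SE 0.16, adjusted p 0.616 by edgeR) between Het DMSO and WT DMSO, and -0.1784 without libraries 409 and 411.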

How the data were processed

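RNA from 12 mouse cerebella was depleted of ribosomal RNA and sequenced as stranded pairs of 100 bases, per the labels' protocols. The authors aligned reads with STAR 2.7.10a to GRCm39, per the submitters' processing notes, and deposited raw counts per gene; the annotation release is not given in the sources used here. The reverse-stranded count column was used, without the rows that name no gene (reads with no gene were 44.7% to 54.6%). Symbols matched 55141 of 55401 identifiers; coordinates and exon lengths come from GENCODE M21 on GRCm38, another build. Genes were filtered with filterByExpr, scaled by TMM and fitted over all 12 libraries with edgeR 4.0.16 (quasi-likelihood, Benjamini-Hochberg over 19378 genes, threshold 0.05), run in R 4.3.3. Single values were also tested by exact permutation, and correlations with 100000 resamples on log2 CPM (prior count 2). Alternatives used DESeq2 1.42.0, limma 3.58.1, other scalings and filters, unstranded counts and fewer libraries. The fit was tested on simulated data. No 2 libraries had identical counts, and the labels give no batch. The 10 RNAs and the gene lists were chosen with earlier results of these data known. From each list the text names the 2 genes with the smallest p, and for 4 members the 3 genes of highest r.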

Additional observations from a re-analysis of the deposited data

Results flagged for a closer look

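In groups of 4 libraries, a value was singled out when its gap to the nearest library took a larger share of the group's range than Dixon's critical value at the 95% level allows. Of 30 groups, 6 met this, where 1.5 would by chance at 1 in 20. Library 411 of Het DMSO was singled out in 3 of them: Meg3 at 6871 CPM (nearest 3857), Miat at 524.3 CPM (nearest 37.02) and Snhg11 at 2064 CPM (nearest 1220). Mirg in WT library 431 was at 76.68 CPM, under the nearest at 91.31. In Het Hit 2, Snhg11 in library 421 was at 1386 CPM, under 1542, and Kcnq1ot1 in library 410 was at 604.1 CPM, above 563.6. Library 409 was singled out in 0 groups.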

How the results depend on the processing

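Of 300 member values under settings that keep all libraries or drop several, 271 kept their sign and side of the threshold, 27 changed sign and 2 became calls; with 1 library left out, 336 of 360 did and 24 changed sign. For the other named genes these counts were 132 of 140, with 7 changes of sign and 1 new call (Th, -2.1375 with quality weights), and, with 1 library left out, 166 of 168 were unchanged in sign and call. The cause was not tested. Genes called for Het DMSO against WT DMSO were 1, and 43 with DESeq2, 0 with only those 2 groups, 98 with library quality weights, 18 without libraries 409 and 411, 0 without the Xist-expressing WT libraries and 0 to 9 with 1 library left out. For Het Hit 2 against WT DMSO they were 1, and 24 with DESeq2, 4 with no filter, 2 with unstranded counts, 54 with only those 2 groups, 221 with quality weights, 90 without 409 and 411, 0 without the Xist-expressing libraries and 0 to 14 with 1 left out. The members called there were 0, and 1 (Meg3) with quality weights and 1 without 409 and 411. For Het Hit 2 against Het DMSO edgeR called 0 genes (301 at an unadjusted p under 0.05), and 0 under every alternative run, DESeq2 included. No paired analysis was possible because the groups share no replicate numbers.

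With quality weights, log2 fold changes that turned sign for Het Hit 2 against Het DMSO were Malat1 -0.1573, Meg3 0.1362, Mirg 0.1486, Miat 0.1088, Kcnq1ot1 -0.0279 and Rbm14 0.0051. For Het DMSO against WT DMSO they were Snhg11 -0.0709, Kcnq1ot1 0.0747, Pantr1 -0.041 and Tardbp 0.0725. Without 409 and 411, those for Het Hit 2 against Het DMSO were Malat1 -0.2221, Meg3 0.2363, Mirg 0.1669, Miat 1.7413, Kcnq1ot1 -0.0272 and Pantr1 0.0803. For Het DMSO against WT DMSO they were Miat -0.1984, Snhg11 -0.1403, Kcnq1ot1 0.0436, Pantr1 -0.0902, Wdr25 -0.0609, Begain -0.2158, Frmd8 -0.0322, Tardbp 0.0813 and Snrpn -0.0076. Without the Xist-expressing libraries, Snhg11 was -0.0356 for Het DMSO against WT DMSO and Kcnq1ot1 -0.0733 for Het Hit 2 against WT DMSO. Pantr1 for Het Hit 2 against WT DMSO was -0.0031 with DESeq2, -0.0038 with RLE factors, -0.0053 with upper-quartile factors, -0.0158 with no filter, -0.3175 with quality weights, -0.01 without 409 and 411 and -0.0085 without the Xist-expressing libraries.

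With 1 library left out, ranges that crossed 0 for Het DMSO against WT DMSO were Neat1 -0.0787 to 0.2386, Snhg11 -0.153 to 0.1953, Begain -0.0826 to 1.5382 and Pantr1 -0.4516 to 0.6622. For Het Hit 2 against Het DMSO they were Neat1 -0.2842 to 0.0381, Meg3 -0.1118 to 0.2095, Rian -0.0938 to 0.2477, Mirg -0.362 to 0.0179, Miat -1.9193 to 1.3561, Rbm14 -0.5219 to 0.0944 and Pantr1 -0.661 to 0.4419. For Het Hit 2 against WT DMSO they were Neat1 -0.1933 to 0.1107, Kcnq1ot1 -0.0096 to 0.0899 and Pantr1 -0.2976 to 0.1734.

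Among the 10 members Pantr1 had the fewest reads, 39 to 174 per library; of the other genes reported, Slc25a45 had 36 to 140 and Kcnq1 8 to 28.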
